A study of Mus musculus with 11 samples.

Results

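The genes described here are 8 members of the interleukin-10 (IL-10), interleukin-18 (IL-18) and interleukin-22 (IL-22) receptor axis: Il10, Il10ra, Il10rb, Il22ra1, Stat3, Il18, Il18bp and Il18r1. They were taken by gene symbol from a table of 22243 genes, and all 8 were found, with 12 transcripts among them. RNA of full-thickness distal colon was measured in 5 Nrg4-/- mice, which carry the knockout on both copies (KO), and in 6 wild-type mice (WT). Nrg4 encodes neuregulin-4, a growth factor that binds the receptor ErbB4. The genotypes had shared cages since week 9 and were dissected at 11 to 12 weeks of age, and the labels name no treatment. Cages A and B each held 2 KO and 2 WT mice, and cage C held 1 KO and 2 WT mice. The strain background, how the null allele was made and whether mice were littermates are not stated in the labels. Mice are named by genotype and number (KO-1, WT-2 and so on). Il10ra and Il18 lie on chromosome 9, as does Nrg4, and the question was whether they differed between KO and WT colon, beside their 6 partners on other chromosomes.

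IL-10 restrains inflammation in the gut. It binds a receptor made of a ligand-binding chain, encoded by Il10ra and carried mainly by leukocytes, and a widely expressed chain encoded by Il10rb. IL-22 comes from lymphoid cells and acts on epithelium through the chain encoded by Il22ra1, which pairs with the same Il10rb product, and both receptors activate the transcription factor STAT3. IL-18 is made by epithelium as a precursor that caspase-1 cleaves; it signals through a receptor encoded by Il18r1 and Il18rap and is neutralised by the secreted binding protein encoded by Il18bp. Loss of IL-10 or of its receptor leads to colitis in mice, and IL-18 and its binding protein also alter experimental colitis.

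Values are in TPM, a transcript level scaled for transcript length and library total, so levels of different genes can be compared. Epcam, a surface protein of epithelium, averaged 979 ± 123 TPM in KO and 1012 ± 90.4 TPM in WT (SD, n = 5 and 6), and all 15 colon epithelium markers examined were past the filter on low values. Smooth muscle markers summed to 2651 to 4678 TPM in KO and 2819 to 5280 TPM in WT. The targeted gene itself, on the minus strand of chromosome 9 from 55220222 to 55326844 (mm10, as for all positions here), read 0 TPM in each of the 11 mice, so Nrg4 could not check the genotype labels. KO-3, the only KO mouse of cage C, stood apart: mitochondrially encoded genes took 42.9% of its summed TPM, against 19.0 to 31.4% in the other mice, and it was far from the other KO mice in Il18 and Il18bp. Results that rest on it are given with and without it. The Y-linked gene Eif2s3y reached 21.5 to 31.8 TPM in cage A (4 mice) and did not exceed 0.0523 TPM in cages B and C, so cage A and sex cannot be told apart.

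None of the members differed between the genotypes past a false discovery rate (FDR, the adjusted p) of 0.05. The filter, at least 1 TPM in at least 5 mice, was passed by 10756 genes and by 5 of the 8 members (Il10rb, Il22ra1, Stat3, Il18 and Il18bp). Of these 5, 0 were called by limma at an FDR below 0.05, against 0.0372% of all genes tested, and 0 had an unadjusted p below 0.05, against 3.1% of all genes tested. In all 8 members the KO and WT values overlapped; they did not overlap in 0.223% of the genes tested. The fitted value was below 0 for 4 of the 5 and above 0 for 1, where 53.2% of all genes tested lay below 0 and 46.8% above. The other 3 members were read from a fit of 18070 genes without a filter, in which 0.0111% were called and 3.43% had an unadjusted p below 0.05; of these 3, none had either. Log2 fold changes set KO over WT, on log2(TPM + 0.5) with cage as a term, and ± after one is its standard error. A p above the threshold does not show that the genotypes were alike, so the 95% interval of each difference is given. The labels do not say that mice came from separate litters, and the p-values measure the spread between these mice. In whole tissue, fewer cells of a type and less RNA per cell cannot be told apart.

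**Figure D1:**
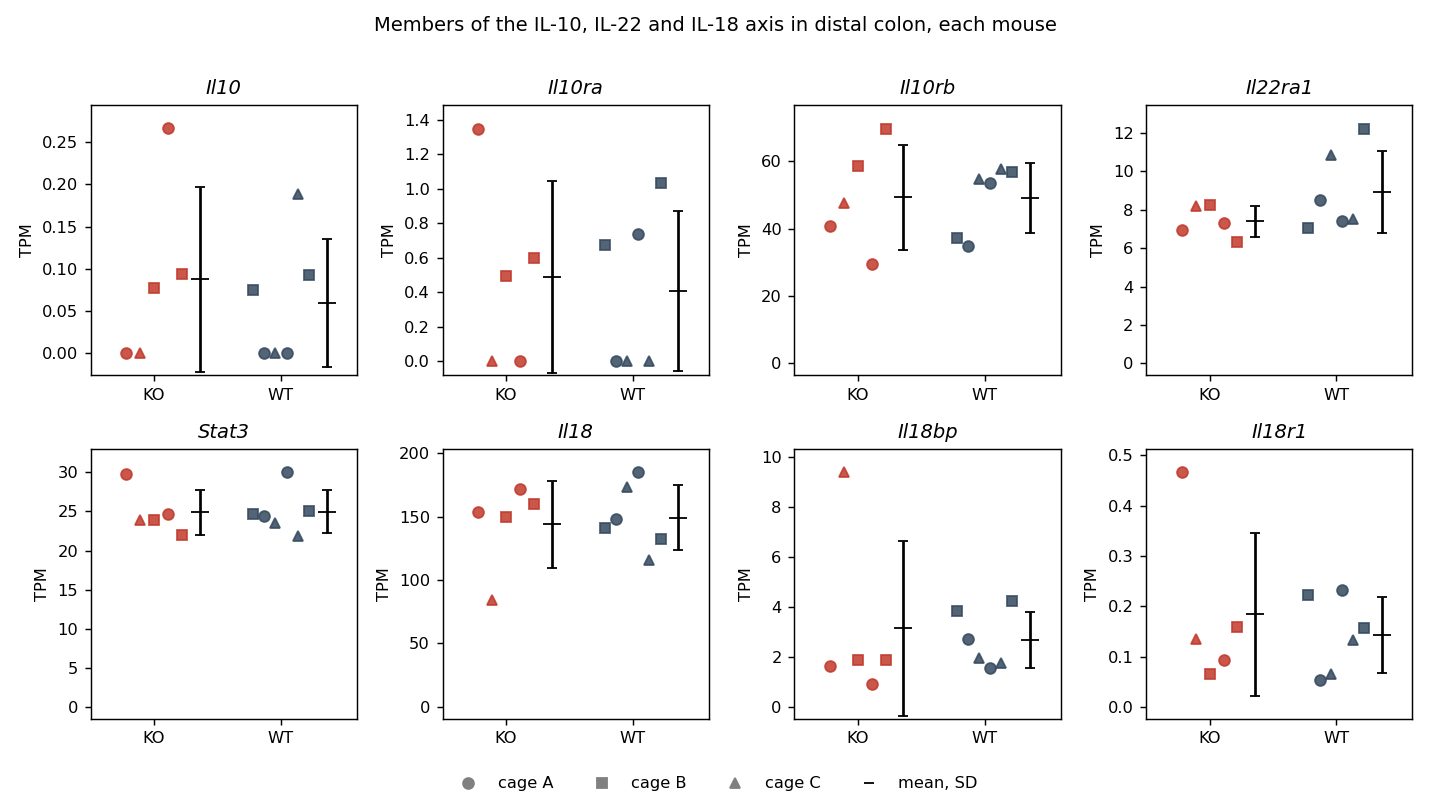
Level of each member in TPM (vertical axis, linear, own scale per gene) in each of 5 KO and 6 WT mice, KO on the left; each point is 1 mouse, its shape gives the cage, and the bars give the mean and SD. KO-3, the KO triangle, is low in Il18 at 84.6 TPM and high in Il18bp at 9.41 TPM, and the genotypes overlap in every panel.

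The members covered a wide range of levels. By the median over 11 mice in TPM, Il18 stood highest at 149.6, followed by Il10rb at 53.4, Stat3 at 24.4, Il22ra1 at 7.54, Il18bp at 1.87, Il10ra at 0.493, Il18r1 at 0.135 and Il10 at 0.0751. Il18 exceeded Il10rb, Il10rb exceeded Stat3, Stat3 exceeded Il22ra1 and Il18bp exceeded Il10ra in all 11 mice. Il22ra1 exceeded Il18bp in 10 of 11, KO-3 being the exception. The lowest 3 could not be ordered beyond their spread, as Il10ra exceeded Il18r1 in 6 of 11 mice and Il18r1 exceeded Il10 in 8 of 11. The cytokine IL-18 was thus an abundant transcript of this tissue while the ligand-binding chain of its receptor was near 0.

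Il10 (ENSMUSG00000016529, chromosome 1, 131019845 to 131024974, plus strand), the ligand, was close to the floor in every mouse. It was listed at 0, 0, 0.0771, 0.267 and 0.0939 TPM in KO-1, KO-3, KO-4, KO-8 and KO-9, and at 0 to 0.189 TPM in WT, with a median of 0.0375. It was above 0 in 3 of 5 KO mice and in 3 of 6 WT mice. The log2 fold change in the fit without a filter was 0.06 ± 0.14, with a 95% interval of -0.25 to 0.37 (limma FDR 1.00). The other IL-10 family ligands were as low: of Il19, Il20, Il22, Il24, Ifnl2 and Ifnl3, 0 of 6 passed the filter and 4 were listed at 0 in every mouse. Il22, the ligand of the Il22ra1 product, was above 0 in 1 mouse, WT-7, at 0.101 TPM. The depth of these libraries is unknown from TPM, and no difference in the ligands was detectable at these levels.

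Il10ra (ENSMUSG00000032089, chromosome 9, 45253837 to 45269149, minus strand) lies 9.97 Mb from Nrg4. It had 1.35, 0, 0.493, 0 and 0.601 TPM in KO-1, KO-3, KO-4, KO-8 and KO-9, and 0 to 1.03 TPM in WT, with a median of 0.336. It was listed at 0 in 2 of 5 KO mice and 3 of 6 WT mice, and the highest mouse of each genotype reached just over 1 TPM. In the fit without a filter its log2 fold change was -0.03 ± 0.36, with a 95% interval of -0.84 to 0.79 (unadjusted p of 0.944, limma FDR 1.00). In the authors' deposited table the mean natural log of its normalised estimated count was 1.497. The exponential of that mean is 4.47, a geometric average that the mice at 0 pull down, and not the count of any single library. All 3 mice of cage C were at 0, while cage B had 0.700 ± 0.233 TPM (SD, n = 4). This difference between cages did not pass the F test in the fit without a filter (unadjusted p of 0.0637, limma FDR 0.541).

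In each genotype Il10ra was highest in the mouse with the highest sum of lymphoid markers. Markers of T, NK and innate lymphoid cells, of which 3 of 22 passed the filter and none was at 0 in every mouse, summed to 114 TPM in KO-1 and 53.9 TPM in WT-11, the mice with the highest Il10ra of their genotype. WT-2 had 23.5 TPM of these markers, and the remaining 8 mice had 11.7 to 17.7. Below the highest mice the order did not hold. KO-3 had 17.7 TPM of these markers and Il10ra at 0. WT-7 had 14.5 TPM of them and more Il10ra than WT-2, at 0.739 against 0.673 TPM. Over the groups the sum ran from 12.4 to 114 TPM in KO and from 11.7 to 53.9 TPM in WT. Macrophage and monocyte markers, 10 of 16 past the filter and none at 0 in every mouse, summed to 103 to 208 TPM in KO and 85.3 to 209.6 TPM in WT, the highest being KO-1 and WT-2. The part of these cells in the Il10ra values was not tested.

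**Figure D2:**
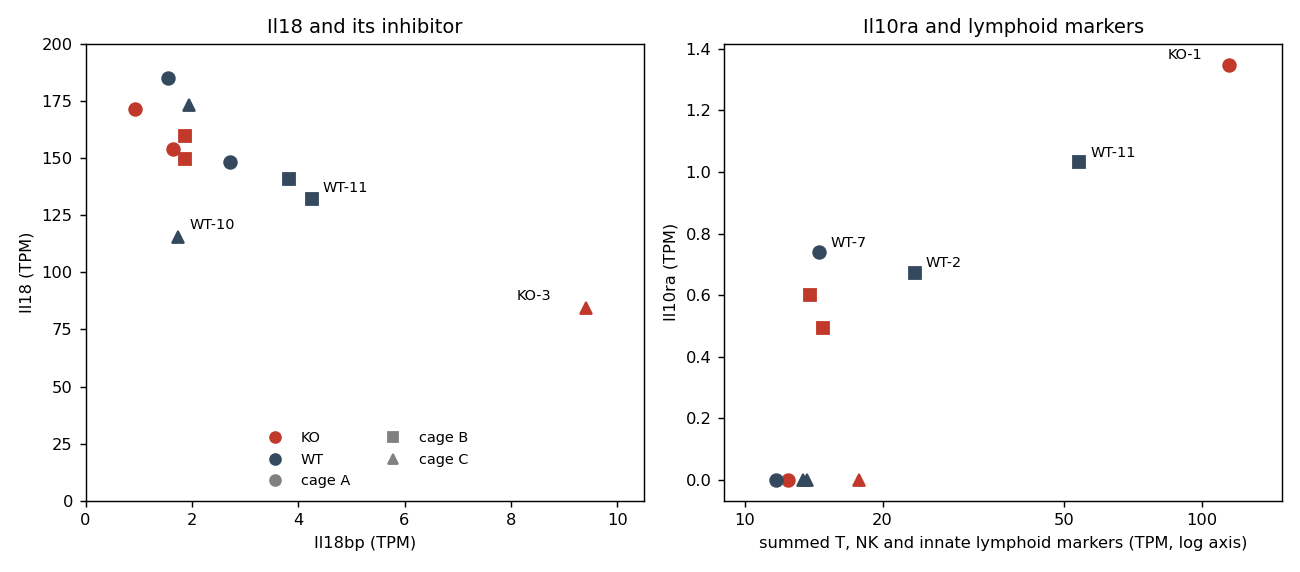
Left, Il18 against Il18bp, both in TPM; right, Il10ra in TPM against the summed TPM of 22 T, NK and innate lymphoid markers on a log axis. Each point is 1 mouse, colour gives the genotype and shape the cage; KO-3 lies alone at 9.41 TPM of Il18bp and 84.6 TPM of Il18, and KO-1 and WT-11 lie highest in Il10ra, at 1.35 and 1.03 TPM.

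Il10rb (ENSMUSG00000022969, chromosome 16, 91406164 to 91425834, plus strand), the chain shared by both receptors, was abundant. It had 40.8, 47.6, 58.5, 29.6 and 69.6 TPM in KO-1, KO-3, KO-4, KO-8 and KO-9, and 34.9 to 57.6 TPM in WT, with a median of 54.0. The KO mice held both the lowest and the highest value, and the WT values lay inside their range. The log2 fold change was 0.0019 ± 0.19, with a 95% interval of -0.42 to 0.42 (unadjusted p of 0.992, limma FDR 1.00). Cage A averaged 39.7 ± 10.2 TPM (SD, n = 4), cage B 55.5 ± 13.5 TPM (n = 4) and cage C 53.2 ± 5.13 TPM (n = 3). This difference between cages did not pass the F test (unadjusted p of 0.0998, limma FDR 0.481). Per length, the 2 chains of the IL-10 receptor differed widely in level: the ratio of Il10ra to Il10rb was at most 0.0330 in KO and 0.0182 in WT.

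Il22ra1 (ENSMUSG00000037157, chromosome 4, 135728172 to 135752140, plus strand), the ligand-binding chain of the IL-22 receptor, averaged 7.40 ± 0.819 TPM in KO and 8.94 ± 2.12 TPM in WT. The KO mice KO-1, KO-3, KO-4, KO-8 and KO-9 had 6.95, 8.19, 8.24, 7.30 and 6.34 TPM, and the WT mice had 7.08 to 12.2 TPM with a median of 8.02. WT-6 and WT-11, at 10.9 and 12.2 TPM, lay above the others, and the rest of the WT mice fell within or close to the KO range. The log2 fold change was -0.22 ± 0.16, the most negative of the members tested, with a 95% interval of -0.57 to 0.13 (unadjusted p of 0.197, limma FDR 1.00). It was below 0 within each cage, at -0.15 (cage A), -0.35 (cage B) and -0.14 (cage C). In the authors' deposited table Il22ra1 had a p of 0.168 and a q of 1. Across the mice the log2 ratio of Il22ra1 to Il10rb differed by -0.21 between KO and WT (exact permutation test within cages, two-sided, 108 arrangements, p = 0.472, adjusted over 2 ratios 0.944; smallest p possible 0.00926).

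Stat3 (ENSMUSG00000004040, chromosome 11, 100885098 to 100939540, minus strand), the transcription factor that both receptors activate, had the narrowest interval of the members tested. It had 29.8, 23.9, 23.9, 24.7 and 22.01 TPM in KO-1, KO-3, KO-4, KO-8 and KO-9, and 21.8 to 30.0 TPM in WT, with a median of 24.6. KO-1 and WT-7 lay highest and at about the same level. The log2 fold change was -0.02 ± 0.09, with a 95% interval of -0.22 to 0.17 (unadjusted p of 0.791, limma FDR 1.00). That interval spans folds of 0.859 to 1.13. RNA level does not report the phosphorylation through which STAT3 acts, which was not measured here.

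Il18 (ENSMUSG00000039217, chromosome 9, 50554827 to 50581840, plus strand) lies 4.67 Mb from Nrg4, closer than Il10ra, and was the most abundant member in every mouse. It had 153.9, 84.6, 149.6, 171.4 and 159.7 TPM in KO-1, KO-3, KO-4, KO-8 and KO-9, and 115.6 to 185 TPM in WT, with a median of 144.5. KO-3 lay below every other mouse, and the other 4 KO mice lay inside the WT range. The log2 fold change was -0.13 ± 0.16, with a 95% interval of -0.48 to 0.23, or folds of 0.717 to 1.17 (unadjusted p of 0.438, limma FDR 1.00). Without KO-3 it was 0.08 ± 0.14 (unadjusted p of 0.590, limma FDR 1.00), a value of the opposite sign. By cage it was -0.03 (cage A), 0.18 (cage B) and -0.74 (cage C, where the KO arm is KO-3).

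The Il18 level was the sum of a pair of principal transcripts that differ outside the coding sequence. The longer, ENSMUST00000214117.1, has 6 exons and 860 nt and begins at 50565374; the shorter, ENSMUST00000180021.1, has 5 exons and 702 nt, begins at the start codon at 50575273 and is contained whole in the longer. Both share the same 576 coding nt, so only the 158 nt at the start of the longer transcript can tell their reads apart. The first 76 coding nt, chr9:50575273-50575348 on the plus strand of GRCm38 (GENCODE M21), are shown because they are where the shorter transcript begins; capitals mark the start codon.
Il18 first coding exon: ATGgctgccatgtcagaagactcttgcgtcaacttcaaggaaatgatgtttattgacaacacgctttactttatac
The shorter transcript took 18.8% ± 9.74 of Il18 in KO, from 7.94 to 29.6%, and 16.9% ± 10.7 in WT, from 9.27 to 37.9% (SD, n = 5 and 6). WT-10 had the highest share, followed by KO-3 and KO-1, and the genotypes overlapped.

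**Figure D3:**
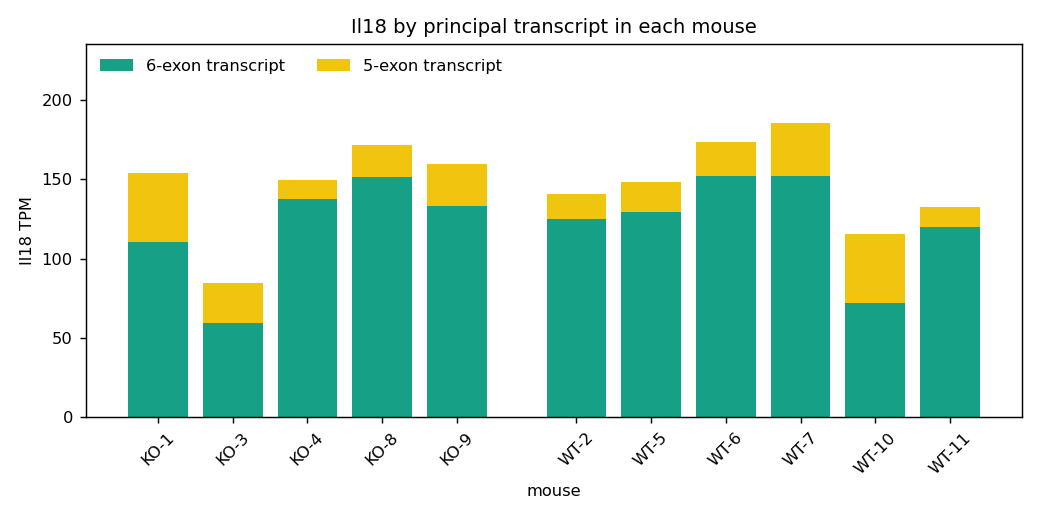
Il18 level in TPM (bar height, axis from 0) in each mouse, KO mice on the left, divided into the 6-exon and the 5-exon principal transcript. The 6-exon transcript takes most of each bar; KO-3 has the lowest total at 84.6 TPM and WT-7 the highest at 185 TPM.

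Il18bp (ENSMUSG00000070427, chromosome 7, 102014885 to 102018690, minus strand), the secreted inhibitor of IL-18, held the member value that depended most on 1 mouse. It had 1.64, 9.41, 1.87, 0.935 and 1.86 TPM in KO-1, KO-3, KO-4, KO-8 and KO-9, and 1.56 to 4.25 TPM in WT, with a median of 2.33. KO-3 lay above every other mouse, and the other 4 KO mice lay in the lower part of the WT range or below it. With all mice the log2 fold change was -0.04 ± 0.42, with a 95% interval of -0.98 to 0.90 (unadjusted p of 0.926, limma FDR 1.00). Without KO-3 it was -0.75 ± 0.21 (unadjusted p of 0.00675), which did not pass after adjustment over all genes (limma FDR 1.00). By cage it was -0.56 (cage A), -0.94 (cage B) and 2.08 (cage C). Counts were low: in the authors' deposited table ENSMUST00000094134.4 of Il18bp had a mean natural log of the normalised estimated count of 3.172. That corresponds to a geometric average of about 23.8 counts over the libraries, so its values for single mice are imprecise.

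The genotype differences of Il18 and Il18bp in cage C lay farthest from 0 and had opposite signs. In the F test of the genotype by cage interaction, Il18bp had an unadjusted p of 0.000528 (limma FDR 0.379) and Il18 one of 0.0481 (limma FDR 1.00). These were 2 of the 5 members tested with an unadjusted p below 0.05, against 3.97% of all genes tested, and 0 of the 5 passed an FDR of 0.05, against 0.0186%. The KO arm of cage C is KO-3 alone, so an effect of that cage and a property of that mouse cannot be told apart. Without KO-3, an alternative chosen after seeing the data, the interaction could be fitted between cages A and B, where Il18bp had an unadjusted p of 0.409 (limma FDR 1.00) and Il18 one of 0.477 (limma FDR 1.00). Of the 5 members 0 had an unadjusted p below 0.05 there, against 3.26% of 10648 genes tested, and 0% of those genes passed the FDR. KO-3 also had the highest mitochondrial share, whose part in these values was not tested. No member had a cage p below 0.05 (0 of 5, against 12.1% of all genes tested, 0% of which passed the FDR).

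Set against each other, the RNA of the cytokine far exceeded that of its inhibitor in every mouse. The proteins were not measured. The ratio of Il18 to Il18bp in TPM was 8.99 to 183 in KO, with a median of 85.7, and 31.1 to 119 in WT, with a median of 60.4. KO-3 had the lowest ratio and KO-8 the highest, so the KO mice spanned the WT range on both sides. The log2 ratio differed by 0.03 between KO and WT (exact permutation test within cages, two-sided, 108 arrangements, p = 0.981, adjusted over 2 ratios 0.981). Without KO-3 the difference was 0.67 (exact permutation test, 36 arrangements, p = 0.111). As a description over 11 mice that share cages, log2 Il18 and log2 Il18bp had a Pearson r of -0.80 and a Spearman rho of -0.66, and an r of -0.49 over the 10 mice without KO-3.

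Il18r1 (ENSMUSG00000026070, chromosome 1, 40465552 to 40500854, plus strand), the ligand-binding chain of the IL-18 receptor, was near the floor. It had 0.467, 0.135, 0.0652, 0.0925 and 0.160 TPM in KO-1, KO-3, KO-4, KO-8 and KO-9, and 0.0543 to 0.232 TPM in WT, with a median of 0.144. KO-1, the mouse with the highest sum of lymphoid markers, lay highest. The log2 fold change in the fit without a filter was 0.05 ± 0.15, with a 95% interval of -0.28 to 0.38 (unadjusted p of 0.737, limma FDR 1.00). Il18rap, which encodes the second chain, reached at most 0.184 TPM in any mouse.

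**Figure D4:**
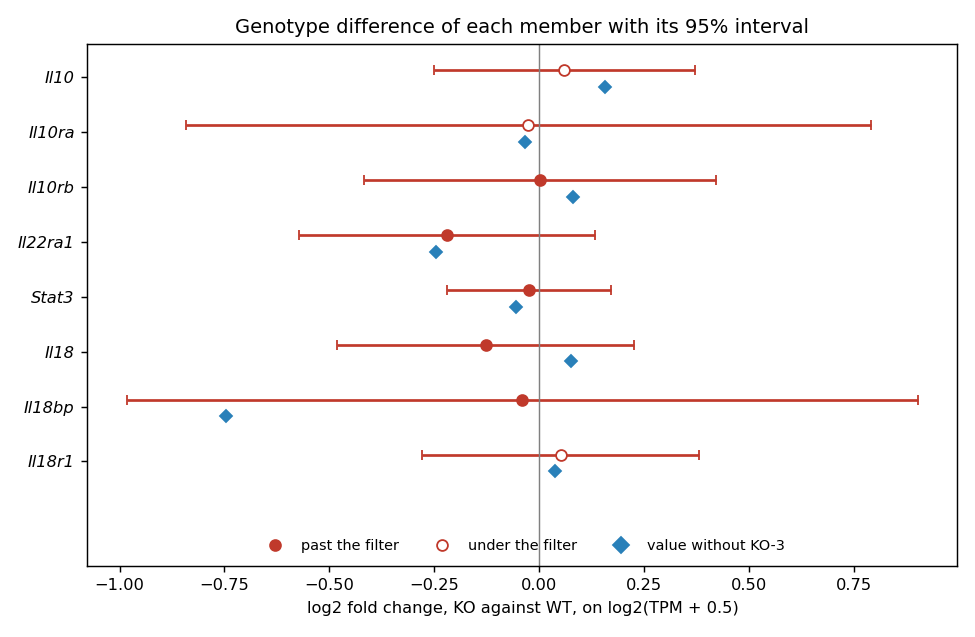
Log2 fold change of TPM + 0.5, KO over WT (horizontal axis), of each member with its 95% interval; filled circles passed the filter, open circles did not, and diamonds give the value without KO-3. Every interval spans 0, and the value of Il18bp was -0.04 with all mice and -0.75 without KO-3.

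The authors' deposited table gave a p-value for 7 of the 12 member transcripts and a q below 0.05 for 0 of them; over the 14763 transcripts with a p in that deposited table, 0.0339% had such a q. Its smallest p among them was that of Il22ra1. For Il18 it gave a p of 0.485 for the longer transcript and 0.842 for the shorter.

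Genes around Il10ra and Il18 on chromosome 9 were compared next, since nearness to Nrg4 sets these members apart from their partners. Within 1 Mb of the start of Il10ra, 35 of 51 genes passed the filter and 0 were called, against 0.0372% of all genes tested. An unadjusted p below 0.05 was found for 11 (31.4%), where 3.1% of all genes tested had one. Of these 11, 8 had lower and 3 higher values in KO, where 2.04% of all genes tested had a lower value at that p and 1.06% a higher one. Mpzl2, an adhesion protein of epithelial junctions, had 15.0 to 34.1 TPM in KO and 23.1 to 48.6 TPM in WT (-0.65 ± 0.12, limma FDR 0.373). Jaml, an adhesion molecule of leukocytes, had 0.338 to 1.02 TPM in KO and 0.932 to 3.42 TPM in WT (-1.14 ± 0.25, limma FDR 0.894). Mpzl3, of the same family as Mpzl2, had 7.65 to 14.9 TPM in KO and 13.1 to 21.2 TPM in WT (-0.53 ± 0.13, limma FDR 1.00). In each of the 3 the ranges overlapped, and none passed the threshold.

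Within 1 Mb of Il18, 17 of 26 genes passed the filter and 1 was called, against 0.0372% of all genes tested. It was the gene model Gm32742 (limma FDR 0.0328), named after its value was seen. An unadjusted p below 0.05 was found for 6 (35.3%), against 3.1% of all genes tested. Of these 6, 4 were higher and 2 lower in KO, where 1.06% of all genes tested were higher at that p and 2.04% lower. The groups did not overlap for 3 of the 17, against 0.223% of all genes tested. Bco2, a mitochondrial enzyme that cleaves carotenoids, had 15.0, 14.4, 22.9, 20.3 and 23.0 TPM in KO-1, KO-3, KO-4, KO-8 and KO-9, and 4.22 to 9.41 TPM in WT, with a median of 6.80. The groups did not overlap, and the log2 fold change of 1.39 ± 0.20 missed the threshold (limma FDR 0.0702). Colca2 likewise did not overlap, with 2.91 to 6.52 TPM in KO and 1.18 to 2.60 TPM in WT (1.18 ± 0.22, limma FDR 0.461). Hspb2, a small heat shock protein of muscle, had 1.30 to 3.40 TPM in KO and 0 to 1.90 TPM in WT (1.32 ± 0.42, limma FDR 1.00).

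Il18 itself lay closer to 0 than most of these neighbours. Of the 17, 10 had a larger absolute log2 fold change than Il18, as did 39.5% of all genes tested. The Il18 value was -0.13 ± 0.16 with all mice and 0.08 ± 0.14 without KO-3. Bco2 (50533087 to 50555181, minus strand) overlaps the annotated Il18 gene by 355 nt, from 50554827 to 50555181, but the measured Il18 transcripts begin 10.2 kb beyond the end of Bco2, so the overlap holds no base of them. On the far side the next gene, Sdhd, a subunit of succinate dehydrogenase, begins after a gap of 14.5 kb and had 264 to 334 TPM in KO and 292 to 398 TPM in WT (-0.23 ± 0.10, limma FDR 1.00). The windows of Il10ra and Il18 were described and not tested.

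**Figure D5:**
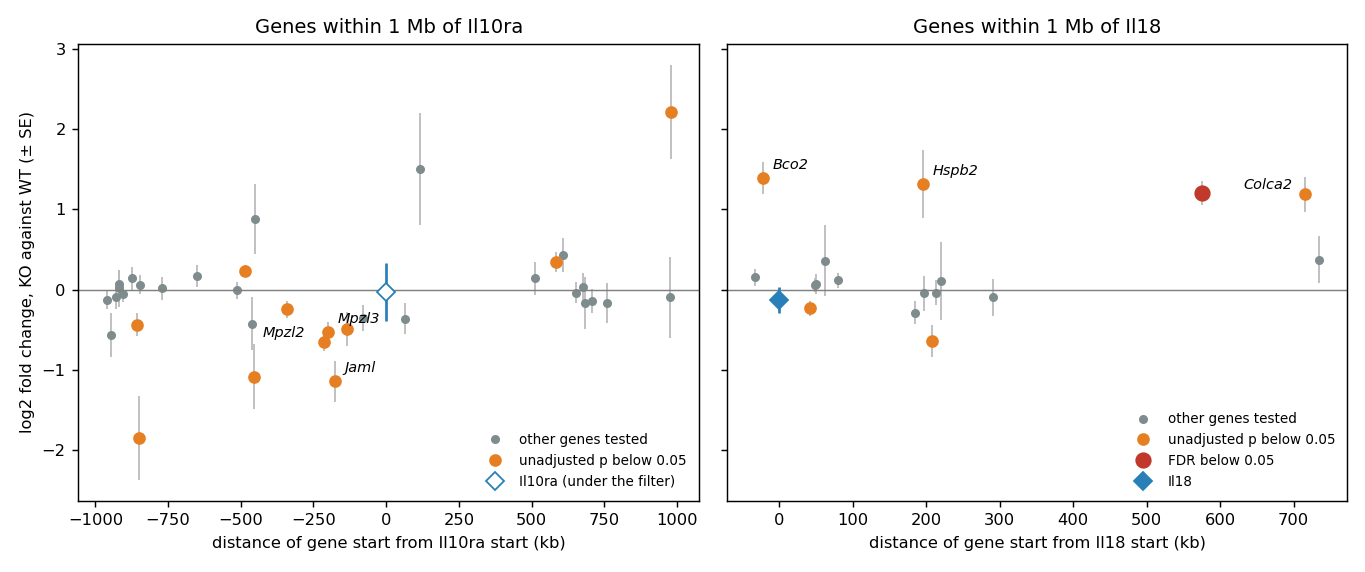
Log2 fold change, KO against WT, with its standard error (vertical axis) of each gene tested within 1 Mb of Il10ra (left) and Il18 (right), by distance in kb from the start of the member (horizontal axis). Diamonds mark the members, at -0.03 and -0.13; Bco2, Hspb2 and Colca2 lie above 1 in the Il18 window, and Mpzl2, Mpzl3 and Jaml lie below 0 in the Il10ra window.

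In the rest of the pathway no gene was called, against 0.0372% of all genes tested, and the median log2 fold change of all genes tested was -0.01. Of 8 other class II cytokine receptors 5 were tested, 1 higher and 4 lower in KO by sign, with a median of -0.02. Ifngr1, the ligand-binding chain of the interferon-gamma receptor, had 199.6 ± 24.8 TPM in KO and 212 ± 14.1 TPM in WT. Il22ra2, which encodes a soluble decoy receptor of IL-22, had 0.499 to 2.44 TPM in KO and 0.183 to 4.17 TPM in WT. Among JAK kinases, other STATs and feedback regulators 16 of 19 were tested, 6 higher and 10 lower by sign, with a median of -0.01. Of these 16, 1 had an unadjusted p below 0.05, against 3.1% of all genes tested. It was Ptpn11, the phosphatase SHP2, at 11.3 ± 1.45 TPM in KO and 7.72 ± 2.14 TPM in WT (0.54 ± 0.20, unadjusted p of 0.0216, limma FDR 1.00). Jak2 had 15.8 ± 0.941 TPM in KO and 17.4 ± 2.12 TPM in WT. Of 9 ligands and receptors of the IL-6 type, which also use STAT3, 2 were tested, Il6st and Il11ra1, at 0.04 ± 0.11 and -0.05 ± 0.12.

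Target genes of these pathways gave the same picture of overlapping groups. Of 17 genes that IL-22 and STAT3 induce in gut epithelium, 11 were tested, 5 higher and 6 lower in KO by sign, with a median of -0.01 and 0 with an unadjusted p below 0.05, against 3.1% of all genes tested. Reg3g, an antimicrobial lectin, had 0.599 to 3.33 TPM in KO and 1.02 to 6.17 TPM in WT. Steap4, a metalloreductase, had 1.24 ± 0.0354 TPM in KO and 1.47 ± 0.417 TPM in WT, with overlapping ranges. Of 12 genes that IL-10 induces in macrophages, 9 were tested, 4 higher and 5 lower by sign, with a median of -0.01. Sbno2, a transcriptional co-regulator, had a log2 fold change of -0.17 ± 0.13, and Zfp36, an mRNA decay factor, 0.39 ± 0.33; neither had an unadjusted p below 0.05.

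IL-18 signalling genes had mostly negative values, and none was called. Of 15, 9 passed the filter, 1 above and 8 below 0, with a median log2 fold change of -0.16, where 53.2% of all genes tested lay below 0. Irak2, a kinase of the MyD88 pathway, had 3.17, 3.89, 8.16, 6.02 and 7.53 TPM in KO-1, KO-3, KO-4, KO-8 and KO-9, and 5.37 to 12.3 TPM in WT, with a median of 9.20. The groups overlapped, and the log2 fold change was -0.67 ± 0.20 (unadjusted p of 0.00780, limma FDR 1.00). Irak2 was the 1 gene of these 9 with an unadjusted p below 0.05, against 3.1% of all genes tested. Irak1, the related kinase, had 8.41, 2.06, 3.95, 5.75 and 0.0854 TPM in the same KO mice, and 3.84 to 8.38 TPM in WT, with a median of 4.82. KO-1 lay just above the WT range and KO-3 and KO-9 below it, and the log2 fold change was -0.90 ± 0.55 (unadjusted p of 0.130, limma FDR 1.00). Ifng, whose induction in lymphocytes is the best known effect of IL-18, was listed at 0 in every mouse. The summed level of the list was 73.0 to 90.6 TPM in KO and 80.6 to 107 TPM in WT.

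Most of the machinery that matures IL-18 passed the filter on low values. The inflammasome genes Nlrp3 and Nlrp1b did not, at no more than 0.116 and 0.254 TPM in any mouse. Of 14 inflammasome genes 10 were tested, 6 higher and 4 lower in KO by sign, with a median of 0.05 and 0 with an unadjusted p below 0.05. Casp1, the protease that cleaves the IL-18 precursor, had 108 ± 14.6 TPM in KO and 114 ± 18.2 TPM in WT. Nlrp6, an inflammasome sensor of gut epithelium, had 19.3, 30.4, 25.2, 9.41 and 20.8 TPM in KO-1, KO-3, KO-4, KO-8 and KO-9, and 12.2 to 19.6 TPM in WT, with a median of 17.0. KO-8 lay below the WT mice and KO-3, KO-4 and KO-9 above them, and the log2 fold change was 0.29 ± 0.21 (unadjusted p of 0.205, limma FDR 1.00). Casp4 had -0.15 ± 0.12.

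Across the 11 mice, the genes whose log2 levels followed each member most closely were found by Pearson correlation, as a description over mice that share cages and libraries. Il10rb was followed by Vstm5 (r = 0.97), Cideb (0.97), a lipid droplet protein, and Mrpl34 (0.94), a protein of the mitochondrial ribosome. Il22ra1 was followed by Abcb1a (0.90), a drug efflux pump, Sema4a (0.88), a semaphorin, and Trim30d (0.87). Stat3 was followed by Orai2 (0.94), a calcium channel subunit, Gimap4 (0.90), a GTPase of lymphocytes, and Ccdc112 (0.89). Il18 was followed by Ap1m2 (0.95), an epithelial clathrin adaptor subunit, Arpc3 (0.92), a subunit of the ARP2/3 complex, and Pygo2 (0.90), a Wnt pathway cofactor. Without KO-3 these became 0.87, 0.78 and 0.68. Il18bp was followed by Car8 (0.92), a carbonic anhydrase-related protein, B2m (0.86), the light chain of MHC class I, and Psmb8 (0.83), a subunit of the immunoproteasome, and without KO-3 these became 0.82, 0.69 and 0.78.

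KO-3 was also the highest mouse in all 3 genes picked for Il18bp, with 2.28 TPM of Car8. B2m had 422, 848, 411, 445 and 453 TPM in KO-1, KO-3, KO-4, KO-8 and KO-9, and 311 to 639 TPM in WT, with a median of 471. Psmb8 had 25.1, 39.2, 15.6, 16.2 and 27.7 TPM in the same KO mice and 19.4 to 37.8 TPM in WT, with a median of 21.5. In WT the highest mouse for Il18bp, Car8, B2m and Psmb8 was WT-11. The RefSeq promoter windows of Il18bp, B2m and Psmb8 are shown. B2m and Psmb8 are 2 of the 3 genes picked for high correlation with Il18bp. The window of Car8, which had the highest r of the 3, is not shown, so the motif matches below do not cover the whole pick. A high r follows from picking the top of all genes tested, so it is no evidence of shared control. Over the 11 mice the Spearman rho with Il18bp was 0.92 for Car8, and lower than r for B2m (0.72) and Psmb8 (0.64). Each window shown is 300 bases of GRCm38 from RefSeq, 250 before and 50 after the annotated start, printed along the strand of the gene. The windows are chr7:102018183-102018482 (minus) for Il18bp, chr2:122147437-122147736 (plus) for B2m and chr17:34197945-34198244 (plus) for Psmb8. The RefSeq start lies within 35 nt of a measured transcript start for Il18bp and B2m. For Psmb8 it lies 405 nt after the start of the measured transcript, so that window is not the promoter of the transcript whose level is given. Capitals mark a match to TTCNNNGAA, letters common to STAT sites, or to GAAA, any 2 bases and GAAA again, letters common to interferon-stimulated response elements, searched on both strands.
Il18bp: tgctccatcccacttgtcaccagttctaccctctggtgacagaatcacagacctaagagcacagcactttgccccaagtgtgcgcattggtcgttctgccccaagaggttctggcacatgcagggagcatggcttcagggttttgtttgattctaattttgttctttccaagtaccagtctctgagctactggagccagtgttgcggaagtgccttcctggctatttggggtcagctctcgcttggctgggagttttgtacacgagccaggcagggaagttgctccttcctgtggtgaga
B2m: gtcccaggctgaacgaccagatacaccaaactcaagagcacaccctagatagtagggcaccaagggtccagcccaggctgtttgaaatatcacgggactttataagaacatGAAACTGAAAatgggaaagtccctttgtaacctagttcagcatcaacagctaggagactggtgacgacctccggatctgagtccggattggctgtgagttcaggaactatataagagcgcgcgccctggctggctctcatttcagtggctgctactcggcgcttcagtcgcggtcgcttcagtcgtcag
Psmb8: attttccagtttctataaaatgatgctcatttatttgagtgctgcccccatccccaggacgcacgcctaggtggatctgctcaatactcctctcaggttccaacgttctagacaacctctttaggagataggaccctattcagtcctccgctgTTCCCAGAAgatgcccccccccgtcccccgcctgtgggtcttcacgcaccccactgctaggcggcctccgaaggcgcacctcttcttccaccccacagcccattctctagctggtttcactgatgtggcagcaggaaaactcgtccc
B2m held 1 match to the repeated GAAA and Psmb8 1 match to TTCNNNGAA, and these letters were not in the Il18bp window. Of 32851 promoter windows of this length, 8.30% held the first motif and 3.44% the second. RefSeq windows were matched for 5 of the 8 members. Those of Il22ra1 and Stat3 held neither motif, and 1 of 3 start sites of Il18r1 held TTCNNNGAA, with 2 matches. The Il18 window lies inside Bco2, 10.7 kb before the nearest measured Il18 transcript, and is not read here as its promoter. A match describes letters in a window and is no evidence of binding.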

How the data were processed

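Polyadenylated RNA of distal colon from 5 KO and 6 WT mice was read as stranded single-end reads of 75 nt, per the labels' protocols. Per the submitters' processing notes, the tools were CASAVA, kallisto and sleuth and the build mm10; no source used here gives their versions. The authors deposited 1 table of principal transcripts with TPM per mouse. It also holds, per the file headers, the authors' p-value and q-value, the mean natural log of the normalised estimated count, a log2 ratio, and a test statistic and other score columns that were not used. Repeated rows (405 of 29213) were dropped and TPM summed per gene, which left 28808 transcripts of 22243 genes, 22241 of them with GENCODE M21 coordinates. Summed TPM ranged from 558446 to 770986 a mouse; read depth is unknown, so no counting interval is given. Kallisto divides reads between transcripts that share sequence, as in Il18, so the share of each is an estimate.

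Genes that reached 1 TPM in 5 or more mice were fitted on log2(TPM + 0.5) in limma 3.58.1 (R 4.3.3), with a mean-variance trend, genotype and cage as terms, and Benjamini-Hochberg adjustment over all genes tested at an FDR of 0.05. The scale understates changes of low genes. Cage and interaction were tested with F tests, and ratios with exact permutation within cages (Python 3.11.15). Alternatives changed the pseudocount, filter, scaling, cage term, trend, weights and mice. The members and gene lists were chosen with earlier results of these data known. Genes named are the members, the 2 tested genes of each list and the 3 named genes of each neighbour window with the smallest p, and the 3 most like each member. Sdhd, Epcam, Casp1, Nlrp3, Nlrp1b, Il18rap, Il22, Ifng and Eif2s3y were chosen after their values were seen. In the other marker lists 0 genes were called, against 0.0372% of all genes tested, and summed levels overlapped between the genotypes. These were B and plasma cells (6 of 10 tested, 3 above 0 in log2 fold change), neutrophils (1 of 8, 0 above 0) and fibroblasts (10 of 10, 8 above 0). The rest were enteric neurons and glia (7 of 10, 3 above 0), smooth muscle (8 of 10, 8 above 0) and endothelium (6 of 10, 6 above 0). Of the 15 colon epithelium markers, 5 lay above 0 and 10 below, and of all genes tested 46.8% lay above 0. The neutrophil sum was almost all Ly6g, at 169 to 510 TPM. The highest value of any other marker in that list was 1.17 TPM, so the sum is not read as a level of neutrophils. The endothelial gene Emcn had 1.86 to 3.06 TPM in KO and 0.766 to 1.81 TPM in WT; these did not overlap, as in 0.223% of all genes tested, with a log2 fold change of 0.73 ± 0.17 (unadjusted p of 0.00177, limma FDR 1.00).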

Additional observations from a re-analysis of the deposited data

Results flagged for a closer look

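A mouse lay far from the others of its genotype in 3 of the 16 sets of values examined, 8 members in each of 2 genotypes. It was flagged when its gap to the nearest mouse, as a share of the range of its group, passed a critical value (0.71 for KO). Such a gap arises by chance in a small share of sets, and the number expected over these sets was not estimated.

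Il18 was 84.6 TPM in KO-3, where the nearest KO mouse had 149.6 TPM. Il18bp was 9.41 TPM in KO-3, where the nearest KO mouse had 1.87 TPM. Il18r1 was 0.467 TPM in KO-1, where the nearest KO mouse had 0.160 TPM. The gap was 0.749 of the range for Il18, 0.889 for Il18bp and 0.765 for Il18r1, which was near the floor.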

How the results depend on the processing

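In 173 fits of single members over all alternatives, 0 gave an FDR below 0.05 (limma, lowest 0.855). Values near 0 changed sign. Il10rb was -0.026 with no cage term and -0.017 with array weights, Il10ra 0.11 with no cage term, Stat3 0.0024 after rescaling without mitochondrially encoded genes, Il18bp 0.016 with array weights and Il18 0.076 without cage C; for the last the construction removes KO-3. Fitted alone, an alternative chosen after seeing the data, the shorter Il18 transcript had 0.15 and ENSMUST00000094134.4 of Il18bp 0.028. The log2 ratio of Il18 to Il18bp was -0.0074 with a pseudocount of 1. With each mouse left out in turn, log2 fold changes ranged from -0.15 to 0.13 for Il10rb, -0.31 to -0.09 for Il22ra1, -0.069 to 0.014 for Stat3, -0.19 to 0.076 for Il18, -0.75 to 0.13 for Il18bp, -0.065 to 0.16 for Il10, -0.34 to 0.20 for Il10ra and -0.079 to 0.12 for Il18r1; the log2 ratio of Il18 to Il18bp ranged from -0.28 to 0.67 and that of Il22ra1 to Il10rb from -0.37 to -0.02. Over all genes, KO against WT called 4 genes, 2 with no filter and 2 without cage C, and 2 to 4 with a mouse left out. The cage test called 0 (1303 at an unadjusted p below 0.05), 4 with no filter and 0 to 2 with a mouse left out. The interaction test called 2, against 12 with a pseudocount of 0.1, 49 with no filter, 1 with a filter of 5 TPM and 0 to 5 with a mouse left out; the 0 was without KO-3, which leaves cages A and B (347 at an unadjusted p below 0.05). The cause of these changes in counts was not tested. Members under the filter had no value under the stricter filter. No paired analysis was possible because KO and WT mice share no replicate number. TPM keep no depth, which limits what can be said of Il10, Il10ra and Il18r1, and also of Il18bp, which passed the filter at low counts.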
